A study of Mus musculus with 6 samples.

Results

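The CP2 and Grainyhead family, the family of transcription factors to which Tfcp2l1 belongs, was followed at its own genes in mouse embryonic fibroblasts (MEFs). The 6 listed genes, Tfcp2l1, Tfcp2, Ubp1, Grhl1, Grhl2 and Grhl3, were chosen by name out of 21938 protein-coding genes. Around each one, every ATAC-seq peak in the gene or within 20 kb of it and every Tfcp2l1 ChIP-seq peak within 200 kb of its transcription start was collected.

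ATAC-seq, which uses the transposase Tn5 to mark open chromatin, was performed in C57BL/6J MEFs from E13.5 embryos with 1 library per condition. The conditions were proliferating MEFs at passage 1 in 20% oxygen (Norm-Pro), senescent MEFs in 20% oxygen (Norm-Sen), proliferating MEFs at passage 1 in 3% oxygen (Hyp-Pro) and MEFs immortalized in 3% oxygen (Hyp-Imm). Tfcp2l1 ChIP-seq was performed with 1 library from senescent C57BL/6J MEFs in 20% oxygen (Norm) and 1 from immortalized C57BL/6J MEFs in 3% oxygen (Hyp). The ATAC-seq lists held from 37770 peaks in Hyp-Imm to 69122 in Norm-Pro, and the ChIP-seq lists held 393 peaks in Norm and 612 in Hyp. The study's methods give a nominal read number common to the ATAC-seq samples, but the lists hold no reads, so the usable depth of each library is unknown, and with 1 library per condition no difference between conditions could be tested. The deposited file of every ATAC-seq library is named for another condition than its sample label. By the file names, Norm-Pro would be Hyp-Imm, Norm-Sen would be Hyp-Pro, Hyp-Pro would be Norm-Pro and Hyp-Imm would be Norm-Sen. Conditions are given here by the labels, and the reading by the file names is added for the promoter peaks and the regions shared between libraries.

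Proteins of this family share an immunoglobulin-like DNA-binding domain and act as dimers or larger assemblies. The CP2 branch (Tfcp2, Ubp1 and Tfcp2l1) binds paired copies of a short half-site, and Tfcp2 and Ubp1 are made in most tissues, whereas Tfcp2l1 is best known for holding embryonic stem cells in naive pluripotency. The Grainyhead branch (Grhl1, Grhl2 and Grhl3) binds the palindrome AACCGGTT and drives the genes of epithelial junctions and barriers, so fibroblasts are not its usual home.

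In these MEFs the 2 widely used CP2 genes, Tfcp2 and Ubp1, and the Grainyhead gene Grhl1 carried a promoter peak in all 4 ATAC-seq libraries. Tfcp2l1 carried one in every library but Hyp-Imm, Grhl2 only in Norm-Pro and Hyp-Imm, and Grhl3 in none. A promoter peak is here a peak within 1 kb of any annotated start of the gene. The members with a promoter peak numbered 5 of 6 in Norm-Pro, against 54.8% of all protein-coding genes. They numbered 4 in each of the others, against 53.0% for Norm-Sen, 49.5% for Hyp-Pro and 35.5% for Hyp-Imm. Of all protein-coding genes, 26.8% were open at the promoter in all 4 libraries, as were 3 of the 6 members, and 32.2% in none, as was Grhl3. By branch, the CP2 genes had a promoter peak in 11 of 12 pairs of gene and library, and the Grainyhead genes in 6 of 12. These pairs count the same 3 genes of each branch in every library. The Grainyhead count lay within the range of all protein-coding genes given above, 35.5% to 54.8%.

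**Figure D1:**
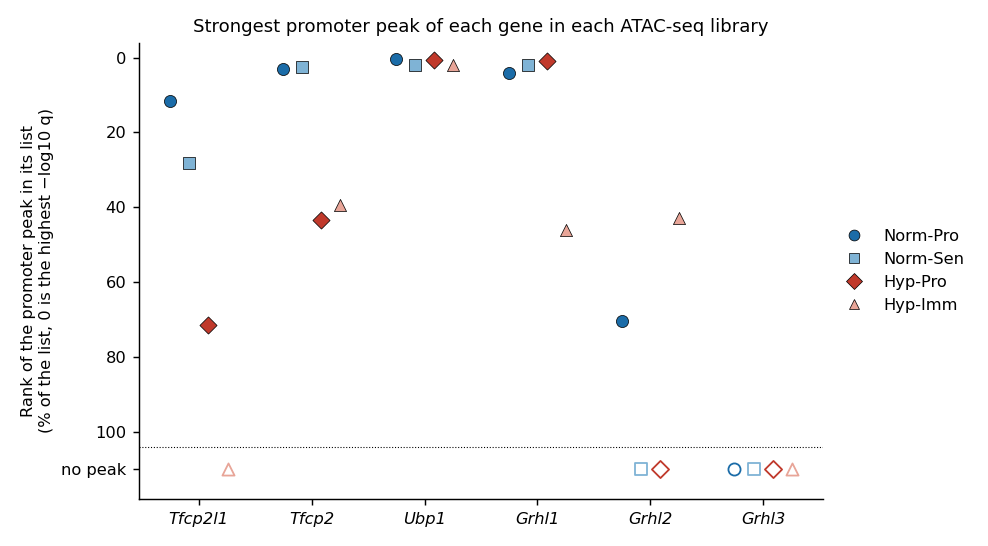
Rank of the strongest promoter peak of each gene (columns) within each ATAC-seq library (symbols), as a percent of that library's list, where 0% is the highest −log10 q; open symbols mark libraries with no promoter peak. Ubp1 lay within the top 2.03% of all 4 lists, Tfcp2l1 lay at 11.5% of the Norm-Pro list, 28.1% of the Norm-Sen list and 71.5% of the Hyp-Pro list with no peak in Hyp-Imm, and Grhl3 had none; the lists differ in length, and conditions are by the labels.

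Over the 6 windows there were 68 ATAC-seq peaks, 38 of them in the genes and 26 of those in introns. A peak in the window was found at 6, 6, 6 and 5 of the 6 members in the order given above, against 86.0%, 85.0%, 81.1% and 73.4% of all protein-coding genes. The Tfcp2l1 window held 9 peaks, Tfcp2 16, Ubp1 10, Grhl1 12, Grhl2 18 and Grhl3 3. Of the 68 peaks, 17 had a −log10 q, the authors' measure of how far a peak exceeds its local background after adjustment within its library, of 5 or more. That is 25% of them, against 20.0% of all ATAC-seq peaks. Of the 17, 10 were promoter peaks of members. Promoter peaks were also broader, with a median width of 211 bp against 121 bp for the other 49. Each rank and fold enrichment below holds within its own library.

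Tfcp2l1 (chr1:118627945-118685168, plus strand, GRCm38) is the gene whose protein was immunoprecipitated in the ChIP-seq. Its promoter peak had a fold enrichment of 5.37 and a −log10 q of 6.46 in Norm-Pro, rank 7966 of the list. In Norm-Sen the fold was 4.65 and the −log10 q 4.72, rank 17275, and in Hyp-Pro 4.31 and 3.05, rank 33971. The Hyp-Imm list held no peak within 1 kb of either annotated start, nor within 2.5 kb. Of all genes with a promoter peak in the same library, 49.4% had a stronger one than Tfcp2l1 in Norm-Pro, as had 64.8% for Norm-Sen and 90.6% for Hyp-Pro. The Tfcp2l1 promoter thus stood near the middle of the open promoters of Norm-Pro and near the weak end of those of Hyp-Pro.

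A promoter peak in every library but Hyp-Imm, the pattern of Tfcp2l1, was found at 12.1% of protein-coding genes. Hyp-Imm had the shortest list, with 37770 peaks, and the ranks of Tfcp2l1 in the other libraries all lay within that number. Each rank holds only within its own list, however, and the Hyp-Imm list was also the weakest. It held 4171 peaks with a −log10 q of at least 5, whereas Hyp-Pro, the next lowest, held 11761. The bearing of list length and peak strength on the missing Hyp-Imm promoter peak was not tested. By the file names the library without the peak is Norm-Sen, and the ranks 7966, 17275 and 33971 belong to Hyp-Imm, Hyp-Pro and Norm-Pro in that order. With a −log10 q of at least 5 required, only the Norm-Pro peak is left.

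The 3 promoter peaks did not cover the same bases. The Norm-Pro summit lay 24 bp after the start, in the 5′ untranslated part of the first exon, whereas the Norm-Sen summit lay 148 bp and the Hyp-Pro summit 112 bp before it. The Norm-Pro and Norm-Sen peaks were separated by 18 bp, and the Hyp-Pro peak overlapped the first by 11 bp and the second by 71 bp. The bases upstream of the start, which each of the 3 peaks overlaps in part, are shown for the hypoxia response element core. This core, ACGTG or GCGTG, is read by hypoxia-inducible factors and occurs 3 times in these bases. The sequence is that of RefSeq (GRCm38.p6, chr1:118627695-118627944, plus strand), with the cores of both strands in capitals.
Tfcp2l1 promoter: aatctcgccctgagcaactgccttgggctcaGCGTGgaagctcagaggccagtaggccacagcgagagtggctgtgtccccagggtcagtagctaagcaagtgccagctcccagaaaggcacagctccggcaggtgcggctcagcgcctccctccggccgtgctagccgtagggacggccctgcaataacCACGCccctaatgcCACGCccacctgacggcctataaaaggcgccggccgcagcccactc
The cores begin 219, 60 and 46 bases before the start. The core at 219 lay outside all 3 peaks. Only the Hyp-Pro peak held the whole core at 60 and only the Norm-Pro peak the whole core at 46. The Norm-Sen peak held none of them. At least 1 core occurred in 38.6% of 32851 RefSeq promoter windows of 250 bases, and at least 3 in 6.58%. Each form of the core holds a CpG dinucleotide, and the windows compared were not matched for CpG or GC content. The Tfcp2l1 promoter window held no Grainyhead site, no AP-1 site, no paired CP2 half-sites and no Tfcp2l1 consensus with up to 2 mismatches. A match is a description of letters and was not read as a bound site.

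The other 6 Tfcp2l1 regions were each open in 1 library alone. The strongest lay 13.9 kb upstream in Norm-Sen (chr1:118613925-118614108, fold 4.86, −log10 q 5.03, rank 13427), outside any protein-coding gene. It is shown as the only distal Tfcp2l1 peak with a −log10 q above 5, on the plus strand of GRCm38, and none of the motifs searched was in it.
Tfcp2l1 13.9 kb upstream: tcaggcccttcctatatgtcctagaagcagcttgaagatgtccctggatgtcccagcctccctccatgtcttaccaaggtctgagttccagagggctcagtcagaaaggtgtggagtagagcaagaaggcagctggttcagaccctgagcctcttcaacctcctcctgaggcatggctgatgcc
A further Norm-Sen peak lay in an intron 5.83 kb after the start (−log10 q 2.80). Hyp-Pro had a peak 15.9 kb upstream, inside Clasp1 (3.15), and one in an intron 46.3 kb after the start (2.33). Hyp-Imm had a peak 18.9 kb upstream, also inside Clasp1 (3.01), and one in an intron 10.2 kb after the start (2.83). The Hyp-Imm library thus had peaks in the Tfcp2l1 window, with ranks 18318 and 24842, although the promoter had none.

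**Figure D2:**
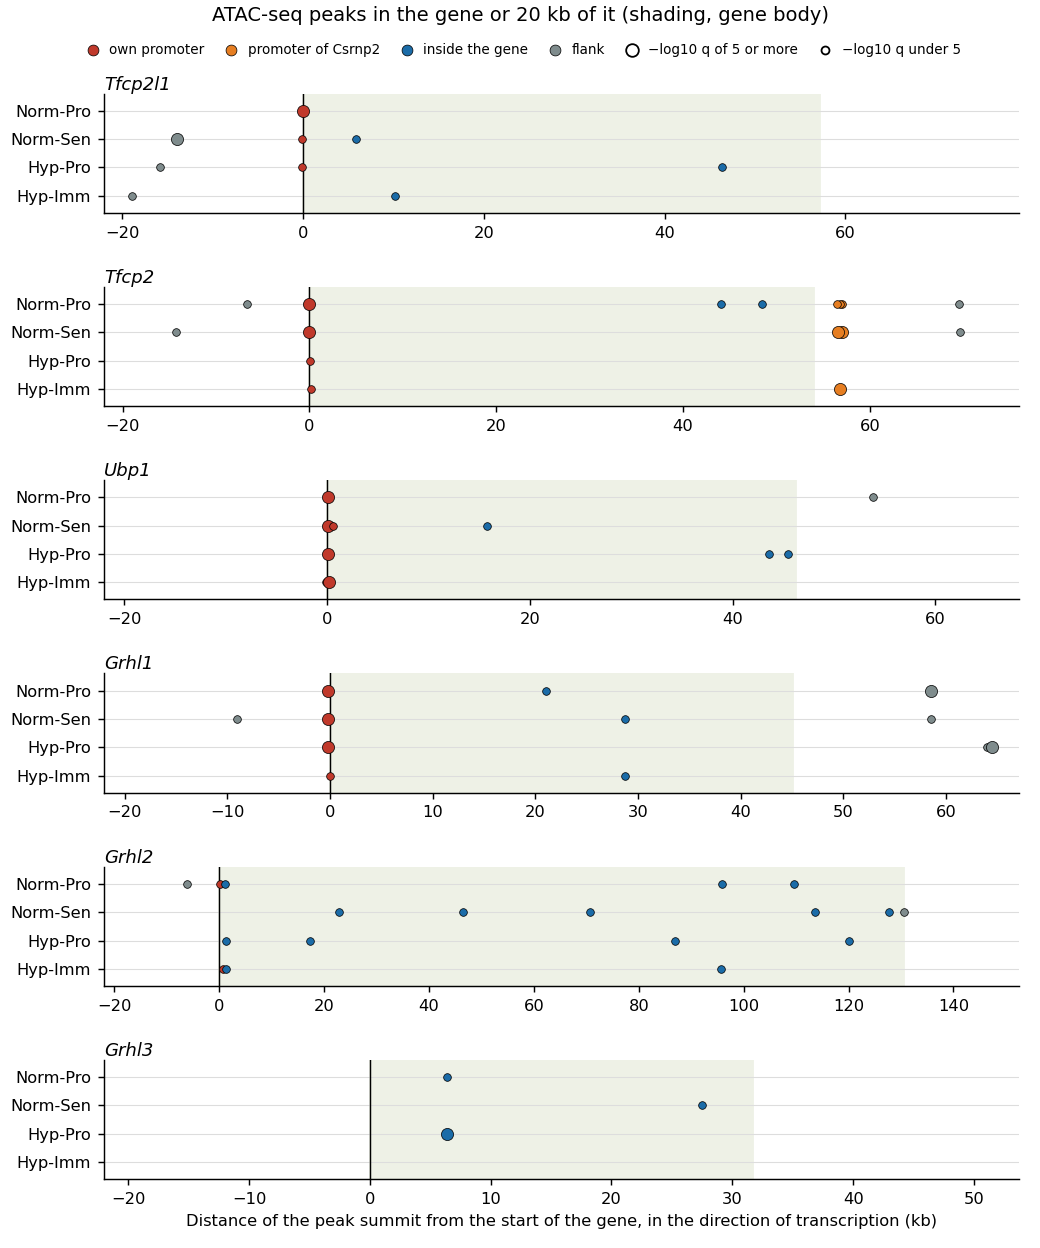
Summit of every ATAC-seq peak in the 6 gene windows, by distance from the start in kb (horizontal axis) and library (rows); colour gives the place of the peak and size whether its −log10 q reached 5. Grhl3 held 3 peaks, all in introns, and the peaks on the Csrnp2 promoter lay past the end of Tfcp2.

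Tfcp2 (chr15:100498012-100552008, minus strand) encodes the CP2 factor that acts on genes of DNA synthesis at the entry into S phase. It was open at the promoter in all 4 libraries. The peak had a fold of 6.74 and a −log10 q of 11.6 in Norm-Pro, rank 2080, and of 6.73 and 12.4 in Norm-Sen, rank 1527. In Hyp-Pro it had a fold of 4.52 and a −log10 q of 3.96, rank 20584, and in Hyp-Imm 5.17 and 3.43, rank 14899. The promoter was thus in the top 3.01% of the lists labelled normoxia and at 43.3% and 39.4% of those labelled hypoxia. By the file names that split is reversed, since both libraries labelled normoxia carry file names of hypoxia. The 4 peaks overlapped each other by 91 to 315 bp, with summits from 68 bp before to 141 bp after the start. The 250 bases upstream are shown as a CpG-rich promoter for comparison with that of Tfcp2l1 (RefSeq, GRCm38.p6, chr15:100552009-100552258, minus strand), with the 1 hypoxia response element core in capitals.
Tfcp2 promoter: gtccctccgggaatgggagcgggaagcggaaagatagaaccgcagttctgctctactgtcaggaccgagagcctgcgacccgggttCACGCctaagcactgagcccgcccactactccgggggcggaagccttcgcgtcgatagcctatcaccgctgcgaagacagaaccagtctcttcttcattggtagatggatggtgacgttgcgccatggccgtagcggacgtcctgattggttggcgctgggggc
This window had 22 CpG dinucleotides and a GC content of 61.6%, against 16 and 65.2% at Tfcp2l1 and medians of 6 and 52.4% over all RefSeq promoter windows.

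The Tfcp2 window had the most peaks for its length in Norm-Pro, with 8 peaks or 8.51 per 100 kb, more than in 90.2% of protein-coding genes. The other libraries held 5 (Norm-Sen), 1 (Hyp-Pro) and 2 peaks (Hyp-Imm). Of these 16 peaks, 6 lay on the promoter of the neighbour Csrnp2, a nuclear protein gene that begins past the 3′ end of Tfcp2. The Csrnp2 promoter had 3 peaks in Norm-Pro, 2 in Norm-Sen, 1 in Hyp-Imm and none in Hyp-Pro. Another 2 peaks, in Norm-Pro and Norm-Sen, lay inside Csrnp2. The Hyp-Pro library thus had no peak in the window other than that of the Tfcp2 promoter.

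Ubp1 (chr9:113930934-113977202, plus strand), the other widely made CP2 factor, had the promoter peak with the highest −log10 q of the family in each of the 4 libraries. The fold and −log10 q were 9.21 and 20.3 in Norm-Pro, rank 205, and 6.71 and 13.52 in Norm-Sen, rank 1167. For Hyp-Pro they were 9.17 and 19.2, rank 268, and for Hyp-Imm 7.84 and 8.70, rank 766. Of the genes open at the promoter in the same library, 1.10%, 9.30%, 1.81% and 7.80% had a stronger peak. This was the only member whose promoter peak had a −log10 q of at least 5 in all 4 libraries. The main summits lay from 67 to 171 bp after the start. In Hyp-Imm a weaker peak with a −log10 q of 4.01 had its summit 93 bp before the start, and in Norm-Sen one of 2.45 lay 629 bp after it. The 4 other peaks of the window were weak, with −log10 q from 2.94 to 4.76, and each was in 1 library. The highest of them, in a Norm-Sen intron 15.8 kb after the start, was 87.6% repeat-masked. The others lay inside the neighbour Fbxl2, in Norm-Pro 53.8 kb after the Ubp1 start and in Hyp-Pro 43.6 and 45.5 kb after it. At the Hyp-Pro peaks Fbxl2 overlaps Ubp1.

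Grhl1 (chr12:24572283-24617391, plus strand) regulates desmosomal cadherins and the anchoring of hair in skin. It was the 1 Grainyhead gene with a promoter peak in all 4 libraries. The fold was 6.74 and the −log10 q 10.4 in Norm-Pro, rank 2782, and 6.71 and 13.1 in Norm-Sen, rank 1280. In Hyp-Pro they were 9.66 and 17.4, rank 364, and in Hyp-Imm 5.03 and 3.15, rank 17375. The promoter thus ranked within the top 4.02% of 3 lists and at 46.0% of the Hyp-Imm list. By the file names the low library is Norm-Sen. All summits lay before the start, by 30 to 175 bp. The promoter is shown as that of the 1 epithelial member open throughout (RefSeq, GRCm38.p6, chr12:24572037-24572286, plus strand, its start 4 bases after the GENCODE start), with the 1 hypoxia response element core in capitals.
Grhl1 promoter: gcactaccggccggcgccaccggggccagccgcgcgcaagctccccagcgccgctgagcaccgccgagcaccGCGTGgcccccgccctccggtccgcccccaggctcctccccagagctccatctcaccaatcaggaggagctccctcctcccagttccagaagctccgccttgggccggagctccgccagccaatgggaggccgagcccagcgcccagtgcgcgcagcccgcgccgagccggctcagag
It had 27 CpG dinucleotides and a GC content of 75.6%, above the upper quartile of all RefSeq promoter windows (16 and 61.2%).

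A pair of distal Grhl1 regions recurred between libraries. The intronic region 28.8 kb after the start was open in Norm-Sen (fold 4.28, −log10 q 4.63, rank 17985) and Hyp-Imm (5.95, 4.56, rank 6213), by the file names Hyp-Pro and Norm-Sen. In Hyp-Imm this intron peak ranked above the Grhl1 promoter. The merged region (chr12:24600939-24601128, plus strand of GRCm38) is shown with its palindromic E-box, which holds a hypoxia response element core on each strand, in capitals.
Grhl1 intron: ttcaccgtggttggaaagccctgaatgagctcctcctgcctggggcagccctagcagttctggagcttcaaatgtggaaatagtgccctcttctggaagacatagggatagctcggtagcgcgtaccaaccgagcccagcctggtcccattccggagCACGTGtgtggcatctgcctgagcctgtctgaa
The second region, 58.6 kb after the start and past the end of the gene, was open in Norm-Pro (fold 5.09, −log10 q 5.70, rank 9969) and Norm-Sen (4.00, 3.74, rank 30531), which by the file names are Hyp-Imm and Hyp-Pro. Its sequence (chr12:24630775-24630920, plus strand) is shown because it is a tandem repeat, although no base of it is masked as one. Capitals are absent since it holds no motif searched.
Grhl1 58.6 kb: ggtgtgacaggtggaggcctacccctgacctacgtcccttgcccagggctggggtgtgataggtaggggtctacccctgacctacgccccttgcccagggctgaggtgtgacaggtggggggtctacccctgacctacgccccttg
A word of 16 bases occurs 3 times in its 146 bases. Reads from such copies can be placed on one another, and the effect of this on the peak was not tested.

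Grhl2 (chr15:37233036-37363569, plus strand) maintains epithelial identity through E-cadherin and other junction genes. It is the longest gene of the family and its window held the most peaks, 18, none with a −log10 q of 5. Its highest was 4.71. Promoter peaks were found in Norm-Pro, with a fold of 4.01 and a −log10 q of 2.96 (rank 48601), and in Hyp-Imm, with 5.13 and 3.28 (rank 16203). That pair of libraries alone was open at 0.852% of protein-coding genes. The peaks lay 533 bp apart, with summits 158 and 745 bp after the start. Within 250 bp of a start only the Norm-Pro peak was counted, and within 2.5 kb Hyp-Pro was added. By the file names the libraries with a promoter peak are Hyp-Imm and Norm-Sen.

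Just past the promoter limit, in the first part of the gene, Norm-Pro and Hyp-Pro had overlapping intronic peaks with summits 1.12 and 1.18 kb after the start (−log10 q 3.31 and 3.92). These libraries carry the file names Hyp-Imm and Norm-Pro. Hyp-Imm had one at 1.35 kb (1.36). The Norm-Sen list alone had no Grhl2 peak nearer to the start than 22.9 kb. The merged region of Norm-Pro and Hyp-Pro (chr15:37234091-37234318, plus strand of GRCm38) is shown for its 25 CpG dinucleotides in 228 bases, and its 1 hypoxia response element core is in capitals.
Grhl2 1.2 kb: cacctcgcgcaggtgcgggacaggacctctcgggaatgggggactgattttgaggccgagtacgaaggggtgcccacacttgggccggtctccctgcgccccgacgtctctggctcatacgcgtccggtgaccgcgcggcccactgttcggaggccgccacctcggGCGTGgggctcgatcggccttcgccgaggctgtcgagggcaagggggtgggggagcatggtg
The strongest Grhl2 peak by rank was intronic, 95.7 kb after the start in Hyp-Imm (fold 6.12, −log10 q 4.71, rank 5662). It was shared with a weak Norm-Pro peak (3.77, 2.36, rank 63574). Those 2 libraries carry the file names Norm-Sen and Hyp-Imm. The remaining regions were in 1 library each. In Norm-Sen, 2 of its 6 peaks had their summits in coding exons, 46.4 and 127.7 kb after the start, with −log10 q of 4.46 and 3.79.

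Grhl3 (chr4:135541888-135573630, minus strand) acts in neural tube closure and the epidermal barrier. It had no promoter peak in any library, within 250 bp, 1 kb or 2.5 kb of its start. Its 3 peaks were intronic. Norm-Pro and Hyp-Pro shared one 6.41 kb after the start, with a fold of 3.56 and a −log10 q of 3.10 in Norm-Pro (rank 38432) and of 5.33 and 6.26 in Hyp-Pro (rank 6875). Norm-Sen had one at 27.5 kb (3.51, 3.33, rank 36063). Hyp-Imm had no peak in the window, as had the 26.6% of protein-coding genes without any. The shared intron peak was thus found in both libraries of passage 1 by the labels, and in Hyp-Imm and Norm-Pro by the file names. Its sequence (chr4:135567179-135567321, minus strand of GRCm38) is shown with the AP-1 site, TGANTCA, in capitals.
Grhl3 intron: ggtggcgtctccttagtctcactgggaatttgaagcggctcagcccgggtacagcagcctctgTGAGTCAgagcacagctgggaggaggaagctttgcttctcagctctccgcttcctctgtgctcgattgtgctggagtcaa
AP-1, the dimer of Fos and Jun proteins, is abundant in fibroblasts, and its site was found in 7.68% of all ATAC-seq regions. The Grhl3 promoter, without a peak in any list, is shown beside it (RefSeq, GRCm38.p6, chr4:135573633-135573882, minus strand), with paired CP2 half-sites in capitals, 2 copies of CCAG or CCGG in the same direction with 6 bases between them.
Grhl3 promoter: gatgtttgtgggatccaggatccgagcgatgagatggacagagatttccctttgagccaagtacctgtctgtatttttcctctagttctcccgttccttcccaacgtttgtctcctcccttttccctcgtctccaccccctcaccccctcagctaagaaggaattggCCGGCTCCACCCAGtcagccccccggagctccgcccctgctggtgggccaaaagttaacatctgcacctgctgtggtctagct
It had 8 CpG dinucleotides and a GC content of 56.0%, the lowest of the 5 members with a RefSeq window. Both were above the medians of all such windows, 6 and 52.4%. Paired half-sites occurred in 6.69% of all such windows.

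**Figure D3:**
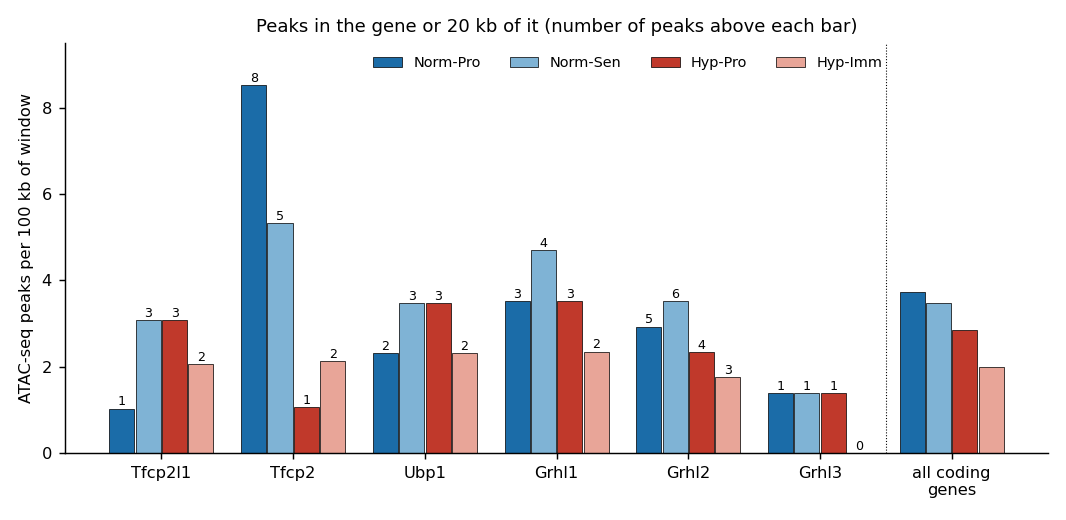
ATAC-seq peaks per 100 kb of gene window for each member and, on the right, summed over all protein-coding genes, with the number of peaks above each bar. Tfcp2 in Norm-Pro stood highest with 8.51, and Grhl3 in Hyp-Imm had none.

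Summed over the family, the windows held 20 peaks in Norm-Pro and 22 in Norm-Sen, and 15 and 11 in the libraries labelled Hyp-Pro and Hyp-Imm. Per 100 kb these were 3.31, 3.64, 2.48 and 1.82, against 3.74, 3.47, 2.86 and 2.00 over all protein-coding genes. The family thus lay near the genes as a whole, slightly below them in each library but Norm-Sen, and these small gaps were not tested. Without the Csrnp2 promoter peaks, a setting chosen after the data were seen, the counts were 17, 20, 15 and 10. When overlapping peaks were merged, the windows held 46 regions. Of these, 34 (73.9%) were open in 1 library, against 85.6% of all 170532 merged regions, and 3 in all 4. The 3 were the promoters of Tfcp2, Ubp1 and Grhl1.

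No region of the family held the Tfcp2l1 consensus with up to 2 mismatches within 200 bp around its centre, as did 0.670% of all regions searched, and none held the Grainyhead palindrome (0.0370%). At such low shares, the lack of a match among 46 regions says little. The paper's own motif search found Tfcp2l1 motifs in a far larger share of its ATAC-seq peaks, so the consensus used here was stricter. Paired CP2 half-sites were in 3 of 46 regions (6.52%, against 5.36% of all regions). They were those 18.9 kb upstream of Tfcp2l1 in Hyp-Imm, on the Csrnp2 promoter, and 48.5 kb after the start of Tfcp2 in Norm-Pro. The hypoxia response element core was in 11 regions (23.9%, against 24.3%) and the AP-1 site in 2 (4.35%, against 7.68%).

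In the Tfcp2l1 ChIP-seq, 1 of the 6 members had a peak within 200 kb of its start. It was Grhl2 in Norm, against 8.13% of all protein-coding genes in Norm, and no member in Hyp (11.8%). Either library had such a peak at 14.9% of genes. The peak (chr15:37121931-37122119) lay 111 kb upstream of Grhl2, with a fold of 6.09 and a −log10 q of 4.31, rank 362 of 393. The nearest Hyp peak was 1166 kb from it, and the nearest ATAC-seq peaks lay 12.8 kb away in Norm-Pro and 3.81 kb in Norm-Sen, and 2.79 and 20.0 kb in the libraries labelled Hyp-Pro and Hyp-Imm. It is shown on the plus strand, without capitals because no motif searched was in it, and none of its bases is repeat-masked.
ChIP-seq peak upstream of Grhl2: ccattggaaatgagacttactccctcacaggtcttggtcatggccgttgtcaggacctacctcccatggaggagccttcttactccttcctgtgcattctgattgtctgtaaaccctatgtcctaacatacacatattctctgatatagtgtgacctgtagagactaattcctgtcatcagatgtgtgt
It overlapped no protein-coding gene and was in the weakest part of its list.

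Around Tfcp2l1 itself the nearest Hyp peak (chr1:118314540-118314707) lay 313 kb upstream, with a fold of 5.83 and a −log10 q of 4.14, rank 428 of 612. The nearest start of a protein-coding gene to this peak was that of Tsn, 2.86 kb away. The nearest Norm peak was 2474 kb from the Tfcp2l1 start. For the other members the nearest peak lay between 507 kb (Grhl3) and 1962 kb (Grhl1) away in Hyp, and between 1606 kb (Grhl3) and 21462 kb (Grhl1) in Norm where Grhl2 is left aside. The Hyp list is the longer of the pair.

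**Figure D4:**
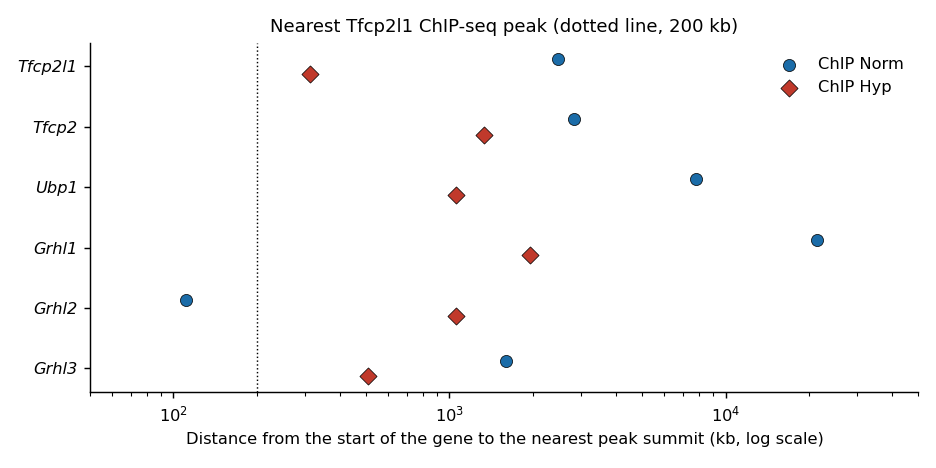
Distance from the start of each member to the nearest Tfcp2l1 ChIP-seq peak summit, in kb on a log axis, in Norm (circles) and Hyp (diamonds); the dotted line marks 200 kb. Only the Norm peak 111 kb from Grhl2 lies inside the line, and the Hyp peak 313 kb from Tfcp2l1 is the next nearest.

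The genes that work with the family were read in the same way. Of 7 genes listed as partners of CP2 proteins, 7 were open at the promoter in each library labelled normoxia and 6 in each labelled hypoxia. The gene without a peak was Tyms in Hyp-Pro and Apbb1 in Hyp-Imm, both named after their values were seen. Tyms, a gene of DNA synthesis, is a target rather than a protein partner. Of the list, 5 were open in all 4 libraries, against 26.8% of all genes. The 7 belong to the hypoxia libraries and the 6 to the normoxia libraries if the file names are followed. Among the 5 open in all 4 were Yy1, the zinc finger factor that pairs with CP2 (ranks 289, 164, 467 and 747 in the same order of libraries as before), the Polycomb proteins Rnf2 and Rybp, and the SUMO ligase Pias1. Of 14 partners and targets of Tfcp2l1 in embryonic stem cells, 8, 6, 7 and 5 were open in the same order, and 5 in all 4 libraries. As shares of the list these were 57.1%, 42.9%, 50% and 35.7%, near or below the shares of all genes. Klf2 ranked 868, 2985, 723 and 309, and Klf4, Klf5 and Tbx3 were also open in all 4. Esrrb, Nanog, Sox2, Pou5f1, Gbx2 and Nr5a2, named after their values were seen, were each open in 1 library. The germ cell and pluripotency regulator Prdm14, Tcl1 and Zfp42, the gene of the marker Rex1, were open in none.

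Of 16 Grainyhead targets in epithelium, 5, 4, 5 and 2 had a promoter peak in the 4 libraries in that order. None had one in all 4, against 26.8% of all protein-coding genes. The splicing factor Esrp1, the transglutaminase Tgm5 and the epithelial factor Elf3 were among the 6 open in none, against 32.2% of all protein-coding genes. Lmo4 was open in 3 libraries, and Cdh1, Epcam, Ovol2 and Itgb4 in 2 each, all named after their values were seen. The labelled cell type was checked by markers. Of 14 fibroblast markers, 7, 7, 8 and 4 were open, which is 50%, 50%, 57.1% and 28.6%, against 54.8%, 53.0%, 49.5% and 35.5% of all protein-coding genes. Col1a2, Vim, Fn1 and Twist1 were open in all 4 libraries, whereas Col3a1, Prrx1 and Lum had a promoter peak in none. The fibroblast markers thus lay near the share of all genes, and their promoter peaks did not set the cells apart as fibroblasts. Of 10 epithelial markers, 4, 1, 3 and 3 were open and none in all 4, against 26.8% of all protein-coding genes in all 4. The keratins Krt8 and Krt5 were open in none, whereas Krt14 was open in Norm-Pro and Hyp-Imm and Krt18 in Hyp-Pro, both named after their values were seen. Endothelial markers were open in 2, 1, 2 and 1 of 4, and Kdr, the receptor of endothelial growth factor, in all 4 libraries with ranks 55376, 48021, 6982 and 3246. Blood markers were open in 2, 2, 0 and 1 of 4. A promoter peak is not a measure of expression, and the part of other cells in these peaks was not tested.

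**Figure D5:**
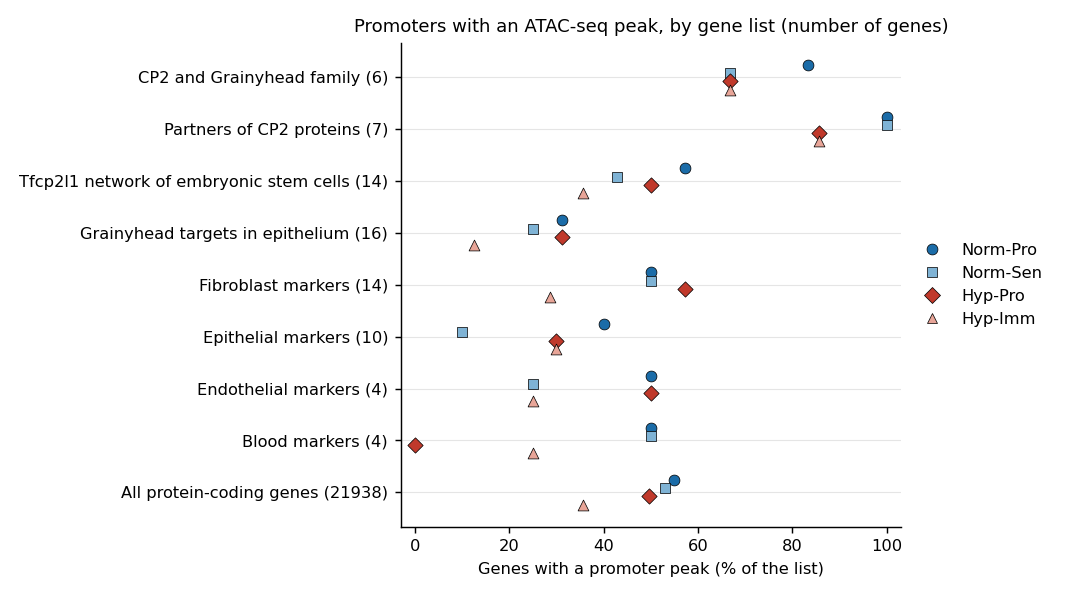
Percent of the genes of each list with a promoter peak in each ATAC-seq library (symbols), with the number of genes in brackets. The CP2 partners lay at 85.7% to 100% and the Grainyhead targets at 12.5% to 31.3%, with all protein-coding genes between 35.5% and 54.8%.

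By promoter rank over the 4 libraries, the genes most like Ubp1 were Gxylt1, Sp1 and Dcun1d4, at distances of 0.267, 0.532 and 0.565 percentile points (Euclidean distance between the percentile ranks, with 0 where there was no peak). The likest to Tfcp2 were Nipbl, Akap8l and Trappc6b (3.79, 4.04 and 4.56), and to Grhl1 Pcsk4, 9430015G10Rik and Fam171a1 (2.34, 2.38 and 2.71). For Tfcp2l1 they were Cbx6 and Npcd, with the same values as each other, and Kars (2.26, 2.26 and 4.35), all without a Hyp-Imm promoter peak. For Grhl2 they were Rbm28, Myom3 and Grik5 (2.45, 5.26 and 6.34). Each distance rests on 4 points per gene from the same libraries.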

How the data were processed

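The deposited files are MACS2 peak lists, 1 per library. For ATAC-seq the authors aligned reads to GRCm38 with Bowtie2, removed pairs over 2 kb apart, moved read starts to where Tn5 cut and called peaks at an FDR of 0.05. For ChIP-seq the records name Bowtie and MACS2 and no build, and GRCm38 was assumed. The deposited fold is the ratio of the pileup at the summit to local background made by the authors, the deposited −log10 p and −log10 q values are at the summit, and the deposited score was not used. No count table was analysed. Peaks were joined in Python 3.11.15 (pandas 2.3.3, pysam 0.24.0) to GENCODE vM21 genes and ranked by −log10 q within a list. Named were the 6 members, neighbours with a peak on their promoter, per list at most 4 genes open in all 4 libraries and 4 in none, and the 3 likest genes per member. The members and lists were chosen with earlier results of these data known. RefSeq gave promoters for 5 of the 6 members. Motifs were searched on both strands, and the search was tested on simulated data (400 of 400 planted consensus sites found). The sites were planted within the mismatches allowed, so this checks the code only. Alternatives covered the window, promoter width, threshold, list length and conditions by the file names.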

Additional observations from a re-analysis of the deposited data

How the results depend on the processing

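With 1 library per condition and lists without reads, no spread, usable depth per library or test could be had, and a missing peak may lie just below the threshold. No paired analysis was possible because no result comes from a test. Counts are given with the libraries labelled normoxia first, and the proliferating before the senescent or immortalized. The 20, 22, 15 and 11 peaks in the windows became 12, 13, 11 and 8 in the gene bodies alone, 31, 35, 26 and 18 with 50 kb on either side, 5, 6, 4 and 2 at a −log10 q of at least 5, and 11, 15, 10 and 11 with as many peaks per library as the shortest list. By the file names they were 15, 11, 22 and 20. At a −log10 q of at least 5 the members with a promoter peak fell from 5, 4, 4 and 4 to 4, 3, 2 and 1, and Tfcp2 was counted in 2 libraries, Tfcp2l1 in 1 and Grhl2 in 0. The Norm ChIP-seq peak near Grhl2 was lost within 100 kb and at a −log10 q of at least 5 (0 peaks each), and within 500 kb Hyp had 1, that near Tfcp2l1. Grhl2 was counted in 1 library within 250 bp of a start, and in 1 with equal list lengths. The other alternatives of the window, promoter, ChIP-seq and motif counts moved them by at most 1.5 times.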
